A study of Homo sapiens with 18 samples.

Results

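Genes that report and restrain signalling through the ERK branch of the MAPK pathway were followed here by the RNA polymerase II (Pol II) found at them. The 9 genes are SPRY1, SPRY2, SPRY4, DUSP4, DUSP6, ETV4, ETV5, PHLDA1 and CCND1. Their regions were chosen by position only, as every row of the deposited count table that overlaps the hg19 span given for a gene. All 9 genes have at least 1 row, 5 of them have 2, and the 14 regions are those of 12123 in the table. No further region lay within 10 kb of the spans. Where a gene has 2, the one nearest the point 1 kb inside the upstream edge of the span is called its start region. Each region is 400 bases long, so levels at different genes can be compared per length, but they are not corrected for copy number or background DNA.

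Growth factor receptors activate RAS, which switches on the kinases RAF, MEK and ERK in turn. Active ERK raises transcription of its own inhibitors: the Sprouty proteins, which dampen the signal between receptor and RAF, and the phosphatases DUSP4 and DUSP6, which remove the activating phosphates from ERK. ETV4 and ETV5 are ETS-family transcription factors made in response to ERK, and the mRNAs of these genes, with those of PHLDA1 and CCND1, are widely used as a readout of pathway activity. In alveolar rhabdomyosarcoma the fusion factor PAX3-FOXO1 is known to switch on receptor genes that feed this pathway, FGFR4 among them.

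The cells were Rh30, an established line of alveolar rhabdomyosarcoma, in which PAX3-FOXO1 carries an FKBP tag in every group, so that dTAG47, a small molecule that binds the tag, leads to its degradation. The 3 groups, of 2 libraries each, were DMSO (the solvent), 500 nM dTAG47 for 2 h, and 500 nM dTAG47 for 4 h. All come from this 1 line, and the loss of the fusion protein is not measured by these data. The labels give no time for DMSO, and the same DMSO libraries are the reference for both times. No cells without the tag are among the groups, so an effect of dTAG47 apart from the fusion was not tested. Chromatin was precipitated with an antibody against Pol II phosphorylated on serine 5 of its tail (Ser5), a form concentrated near transcription start sites. The series holds 12 more libraries, made with other antibodies, which are not analysed here.

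Total counts per library ran from 962251, in 4 h library B, to 1792013, in DMSO library A, and the members had between 40 and 355 counts per region. Levels are given as CPM, a count relative to the library's total in the table after TMM scaling. The 3 regions with the highest counts took 1.77 to 2.61% of the counts in DMSO, 2.61 to 3.21% at 2 h and 2.61 to 4.17% at 4 h. This share moves with the groups but also with depth, being lowest in the largest library and highest in the smallest. In every group it is higher in library B than in library A. Counts or values with this share in the fit are given beside several of the results that they change. The labels do not say whether both libraries of a group stem from different cultures, and the p-values below therefore cover the spread of these libraries alone, be it technical or not. The scaling would hide a shift shared by every region. The table gives no strand, and RefSeq places SPRY4-AS1 and SPRY4-IT1 over SPRY4, ETV5-AS1 over ETV5, PHLDA1-AS1 and PHLDA1-DT by PHLDA1, DHX8 by ETV4 and the readthrough gene POC1B-DUSP6 over DUSP6. Signal of such partners and of the named gene cannot be told apart.

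In DMSO the 14 regions spanned 44.8 to 196 CPM, and 12 of them lay above the median of all regions, 63.8 CPM. The region of DUSP6 nearest its start was the highest, with 192 and 201 CPM in DMSO libraries A and B, above 96.7% of all regions. It was followed by the second DUSP6 region (146 and 152 CPM) and by PHLDA1 (112 and 107 CPM), and the libraries of these 3 regions did not overlap. From PHLDA1 down to the start region of SPRY4 the levels formed a continuous order. SPRY2, ETV4, SPRY1, CCND1 and ETV5 lay in it, and each neighbouring pair overlapped in its DMSO libraries. Of the 13 neighbouring pairs, 9 overlapped. Below that order stood the region at the end of CCND1 (59.9 and 52.7 CPM) and, lowest, DUSP4 (41.0 and 48.6 CPM).

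**Figure D1:**
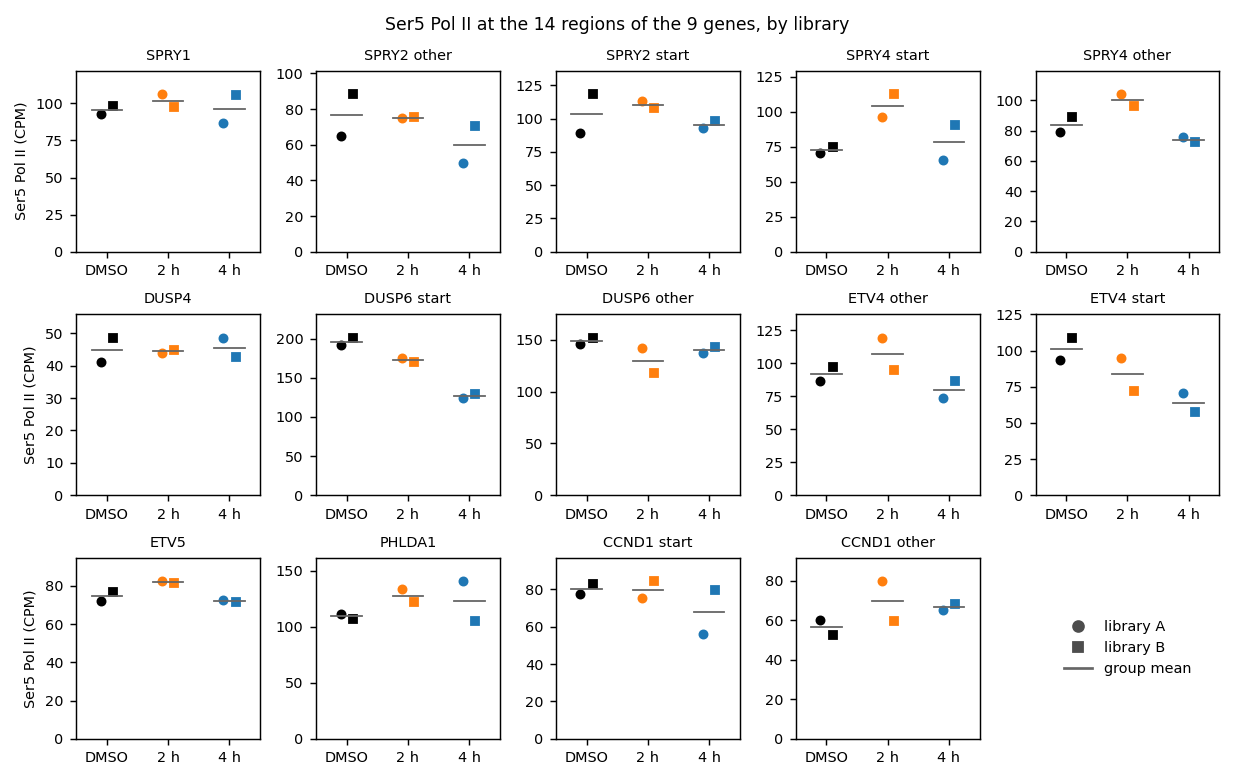
Ser5 Pol II in CPM (vertical axes, each from 0) at the 14 regions in DMSO and after 2 h and 4 h of dTAG47. Circles are library A, squares library B and lines the mean of the 2. For a gene with 2 regions, "start" is the one nearest the point 1 kb inside the upstream edge of its span. The second is called "other", and for ETV4 the transcript start was not determined. The DUSP6 start region stood at 192 and 201 CPM in DMSO and at 124 and 130 CPM at 4 h, without overlap.

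The comparison of each time with DMSO asked how Ser5 Pol II at these genes moved after dTAG47 was added. At 2 h none of the 14 regions passed the threshold (edgeR quasi-likelihood test, adjusted p under 0.05), as 0 were called higher, against 2.22% of all regions, and 0 lower, against 0.396%. At an unadjusted p under 0.05, 1 region was higher, the start region of SPRY4, in each of edgeR, DESeq2 and limma-voom. The shares of all regions were 8.88%, 3.58% and 9.3%, so that 1 of 14 is near the background in edgeR and limma-voom. With the share of the 3 highest regions in the edgeR fit, 3 of the 14 were higher at that p, against 1117 of all 12123 regions. At 4 h 2 of the 14 regions fell, against 0.487% of all regions, and these were the start region of DUSP6 and the upstream region of ETV4. None was called higher at 4 h, against 1.52% of all regions, and none of the 14 was higher at an unadjusted p under 0.05. When the share of the 3 highest regions entered the edgeR fit, 1 was higher at that p, against 858 of all 12123 regions. The median log2 fold change over the 14 regions was 0.0987 at 2 h and -0.101 at 4 h, beside -0.00984 and -0.00829 over all regions. These medians rest on single DMSO libraries. Without DMSO library A they were -0.00329 and -0.19, without DMSO library B 0.194 and -0.0243, and without 4 h library A the value at 4 h was -0.0615. Leaving out 2 h library A gave 0.0588 at 2 h and leaving out 2 h library B gave 0.148. They were 0.00865 and -0.204 with the share of the 3 highest regions in the fit, and 0.0379 and -0.155 with total count scaling.

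**Figure D2:**
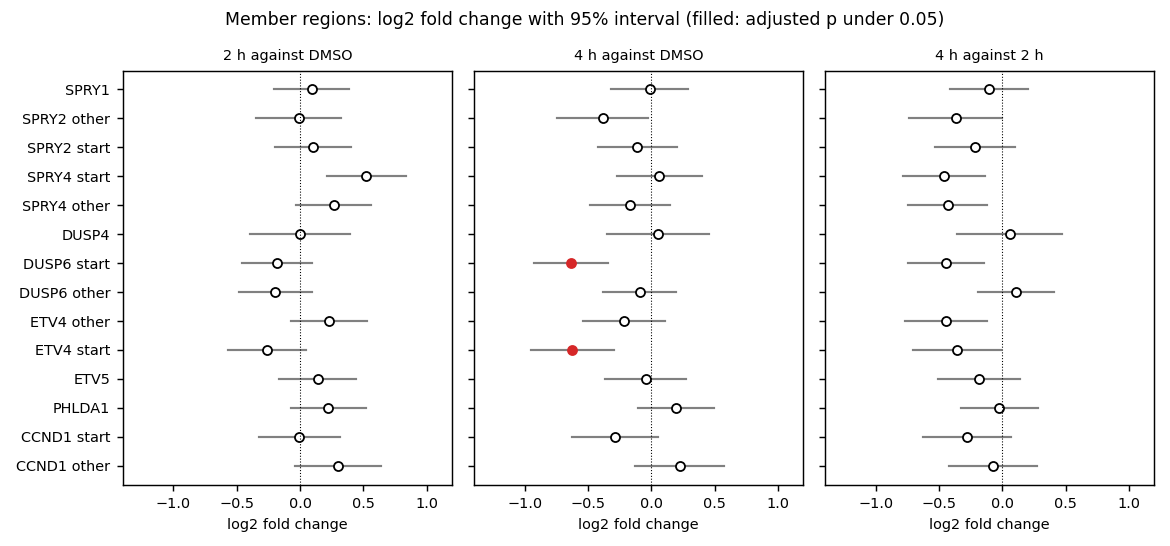
Log2 fold change (horizontal axes) of the 14 regions at 2 h against DMSO, 4 h against DMSO and 4 h against 2 h, with 95% intervals from the edgeR fit as bars; filled points passed an adjusted p under 0.05. Only the DUSP6 start region (-0.63) and the upstream ETV4 region, labelled ETV4 start (-0.62), did so, both at 4 h. The transcript start of that ETV4 region was not determined.

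Of the Sprouty genes, which encode inhibitors of receptor signalling, SPRY4 had the largest difference at 2 h. Its start region, on chromosome 5 at 141704133 to 141704533, held 70.7 and 74.6 CPM in DMSO, 96.4 and 112 CPM at 2 h, and 65.5 and 90.6 CPM at 4 h. Both 2 h libraries stood above both DMSO libraries, while the 4 h libraries lay on either side of them. The log2 fold change at 2 h was 0.52 (SE 0.15, 95% interval 0.21 to 0.83) and missed the threshold (edgeR adjusted p = 0.0536). The call was made when either 4 h library was left out (0.52, adjusted p = 0.0268, without 4 h library A and 0.53, adjusted p = 0.0223, without 4 h library B), although these libraries enter this comparison only through the shared spread and scaling. The other way, the value was 0.33 (adjusted p = 0.308) with the share of the 3 highest regions in the fit. The adjusted p was 0.117 with total count scaling, 0.151 with cyclic loess, 0.499 in DESeq2, 0.219 without DMSO library A and 0.36 without 2 h library B. The second SPRY4 region, centred 1225 bases away at 141705358 to 141705758, held 78.8 and 89.0 CPM in DMSO, 104 and 96.5 CPM at 2 h, and 75.6 and 72.4 CPM at 4 h. Here too the 2 h libraries were the highest, and both 4 h libraries were below both DMSO libraries. Its log2 fold changes were 0.27 at 2 h (adjusted p = 0.418) and -0.17 at 4 h (adjusted p = 0.728).

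SPRY2 and SPRY1 moved less. The start region of SPRY2, on chromosome 13 at 80914184 to 80914584, held 89.1 and 118 CPM in DMSO, 113 and 108 CPM at 2 h, and 93.3 and 98.0 CPM at 4 h, and the libraries of both times lay within the range of DMSO. The second SPRY2 region, at 80913038 to 80913438 further into the gene, had 64.8 and 88.3 CPM in DMSO, 74.7 and 75.3 CPM at 2 h, and 49.8 and 70.3 CPM at 4 h. Its log2 fold change at 4 h was -0.38 (95% interval -0.74 to -0.02), which did not pass after adjustment (adjusted p = 0.334). When the share of the 3 highest regions entered the fit, the value was -0.76 (adjusted p = 0.0231). The only region of SPRY1, on chromosome 4 at 124319379 to 124319779, held 92.9 and 98.5 CPM in DMSO, 106 and 97.3 CPM at 2 h, and 87.0 and 105 CPM at 4 h. Its libraries overlapped between groups, and the interval of its 4 h change ran from -0.32 to 0.29.

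DUSP6, the phosphatase that acts on ERK in the cytoplasm, carried the lowest p-value among the members. Its start region, on chromosome 12 at 89745471 to 89745871, held 192 and 201 CPM in DMSO, 175 and 170 CPM at 2 h, and 124 and 130 CPM at 4 h. The 3 groups were ordered without overlap, with the 4 h libraries the lowest. Ser5 Pol II there fell 1.55-fold by 4 h (log2 fold change -0.63, SE 0.15, edgeR adjusted p = 0.00932), and at 2 h the value was -0.18 (SE 0.14, adjusted p = 0.602). The second DUSP6 region, at 89747269 to 89747669, is centred 1798 bases from the first, on the upstream side. It held 146 and 152 CPM in DMSO, 142 and 118 CPM at 2 h, and 137 and 143 CPM at 4 h, with a log2 fold change of -0.09 at 4 h (95% interval -0.38 to 0.20). The fall at the start region missed the threshold without 4 h library A (-0.59, adjusted p = 0.0847) and in DESeq2 (-0.63, adjusted p = 0.111).

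The sequence just upstream of the start of DUSP6 is shown because its start region fell (the upstream region was not called), and that of SPRY4 because it had the largest difference of the members at 2 h. Both are the 250 bases before a RefSeq transcript start in GRCh38.p14, read 5′ to 3′ on the minus strand, at chr12:89352502-89352751 and chr5:142324248-142324497. Capitals, present in DUSP6 only, mark an octamer bound by CIC, a repressor of ERK-responsive genes that ERK signalling relieves.
DUSP6: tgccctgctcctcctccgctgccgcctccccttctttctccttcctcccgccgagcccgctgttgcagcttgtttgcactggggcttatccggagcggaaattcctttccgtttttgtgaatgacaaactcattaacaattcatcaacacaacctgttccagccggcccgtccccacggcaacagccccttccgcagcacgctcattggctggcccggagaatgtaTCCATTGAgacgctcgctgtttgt
SPRY4: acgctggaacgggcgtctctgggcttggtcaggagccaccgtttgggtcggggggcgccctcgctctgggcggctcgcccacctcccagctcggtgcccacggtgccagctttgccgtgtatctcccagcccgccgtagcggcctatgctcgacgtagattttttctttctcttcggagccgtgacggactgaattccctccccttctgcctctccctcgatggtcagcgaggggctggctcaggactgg

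The octamer was searched as TGAATGAA, TGAATGGA, TCAATGAA or TCAATGGA on both strands, and DUSP6 holds 1 match, on the other strand, beginning at position -24 counted from the start. Of the 5 members in the promoter table, which are SPRY1, SPRY2, SPRY4, DUSP6 and PHLDA1 with 8 promoters, 1 promoter held the octamer, and 3.18% of all 35116 promoters in the table did. The sequence CCGGAA, searched on either strand as an ETS motif, stood in 3 of the 8 and in 14.5% of all. These were 1 promoter each of SPRY1, SPRY2 and PHLDA1, and the other promoters of SPRY1 and SPRY2 held no match. Other forms of an ETS site were not searched. The AP-1 sites TGACTCA and TGAGTCA, each also the complement of the other, stood in 0 of the 8 and in 4.2% of all. No promoter of a member held more than 1 of the 3 motifs. DUSP4, ETV4, ETV5 and CCND1 are not in that table. The positions are in another build than the count table, so the promoters were tied to the genes by symbol and not to the regions.

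DUSP4, the nuclear phosphatase of ERK, had the lowest level of the members and the smallest difference at 2 h. Its region, on chromosome 8 at 29207679 to 29208079, held 41.0 and 48.6 CPM in DMSO, 44.0 and 44.8 CPM at 2 h, and 48.5 and 42.6 CPM at 4 h, and the groups overlapped. The 95% interval of its log2 fold change was -0.40 to 0.39 at 2 h and -0.35 to 0.45 at 4 h, which leaves room for changes of either sign.

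Of the ETS-family factors, ETV4 had a region that fell. This region, on chromosome 17 at 41623079 to 41623479, is nearer the upstream end of the span than the other, but its centre is 34221 bases inside the upstream edge, and the transcript start it belongs to was not determined. It held 93.4 and 109 CPM in DMSO, 94.96 and 72.2 CPM at 2 h, and 70.6 and 57.5 CPM at 4 h. Both 4 h libraries were below every DMSO and 2 h library, while 2 h library A lay among the DMSO libraries. Ser5 Pol II fell 1.54-fold there by 4 h (log2 fold change -0.62, SE 0.16, edgeR adjusted p = 0.0280), and the value at 2 h was -0.26 (adjusted p = 0.454). The call ended without DMSO library B (-0.50, adjusted p = 0.133), without 4 h library B (-0.50, adjusted p = 0.264), in DESeq2 (-0.64, adjusted p = 0.459) and when the share of the 3 highest regions entered the fit (-0.51, adjusted p = 0.166).

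The second ETV4 region, at 41607798 to 41608198 near the downstream end, held 86.9 and 97.2 CPM in DMSO, 119 and 95.02 CPM at 2 h, and 73.7 and 86.3 CPM at 4 h. Its log2 fold changes were 0.23 at 2 h and -0.22 at 4 h, and neither passed (adjusted p = 0.513 and 0.621). ETV5, the paralog of ETV4, had 1 region, on chromosome 3 at 185826525 to 185826925. It held 72.4 and 76.6 CPM in DMSO, 82.4 and 81.3 CPM at 2 h, and 72.5 and 71.4 CPM at 4 h. The 2 h libraries were the highest, the 4 h libraries overlapped DMSO, and the log2 fold changes of 0.14 and -0.05 did not pass (adjusted p = 0.744 and 0.951).

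PHLDA1, a pleckstrin homology-like protein, had its region on chromosome 12 at 76425087 to 76425487. Its libraries held 112 and 107 CPM in DMSO, 133 and 122 CPM at 2 h, and 141 and 105 CPM at 4 h. Both 2 h libraries stood above DMSO, while the 4 h libraries were the highest and the lowest of the 6. The log2 fold changes were 0.22 at 2 h (adjusted p = 0.526) and 0.20 at 4 h (adjusted p = 0.635).

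CCND1 encodes cyclin D1, the partner of CDK4 and CDK6 that carries the growth signal into the cell cycle. Its start region, on chromosome 11 at 69457443 to 69457843, held 77.8 and 82.8 CPM in DMSO, 75.4 and 84.4 CPM at 2 h, and 56.1 and 79.9 CPM at 4 h. The log2 fold change was -0.01 at 2 h and -0.29 at 4 h (95% interval -0.62 to 0.05, adjusted p = 0.488), with the 4 h libraries far apart. A second region near the downstream edge of the span, at 69469627 to 69470027, held 59.9 and 52.7 CPM in DMSO, 79.6 and 59.3 CPM at 2 h, and 64.9 and 68.2 CPM at 4 h. It was the only member region with both 4 h libraries above both DMSO libraries, and its values of 0.30 and 0.23 did not pass (adjusted p = 0.437 and 0.645).

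The direct comparison of 4 h with 2 h, which does not use the DMSO libraries as its reference, had 0 calls among the 14 regions and 0% among all regions (edgeR, lowest adjusted p = 0.998). DESeq2 and limma-voom also called 0. Without adjustment, 6 of the 14 regions were lower at 4 h at p under 0.05, against 2.07% of all regions, and 0 were higher, against 1.2%. The 6 were both regions of SPRY4 (log2 differences -0.46 and -0.43), both of ETV4 (-0.36 and -0.45), the start region of DUSP6 (-0.45) and the second region of SPRY2 (-0.37). DESeq2 put 1 region under that p, against 0.214% of all regions, and limma-voom 5, against 2.03%. When the share of the 3 highest regions entered the edgeR fit, 7 were lower at that p, against 3.56% of all regions. In sign, 12 of the 14 were lower at 4 h than at 2 h, beside 50.5% of all regions. The exceptions were DUSP4 and the upstream region of DUSP6. The median was -0.248, beside -0.00277 over all regions. The count at unadjusted p under 0.05 was 2 without 2 h library A, 4 without 2 h library B and 3 without 4 h library A. Both 4 h libraries lay below both 2 h libraries at 8 of the 14 regions, against 16.4% of all regions. Lower values at 4 h were also seen outside the members. Of 13 regions of other feedback and output genes, taken up below, 9 were lower in sign and 4 higher. At an unadjusted edgeR p under 0.05, 5 of them were lower and 1 higher. Both 4 h libraries lay below both 2 h libraries at 6 of them and above at 2. Of 17 cascade regions 12 were lower in sign and 1 at that p, and both 4 h libraries lay below at 4.

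Against DMSO, both 2 h libraries were above at 4 of the 14 regions (the 2 of SPRY4, ETV5 and PHLDA1), beside 21.9% of all regions. Both 4 h libraries were below DMSO at 5 (the 2 of DUSP6, the 2 of ETV4 and the second of SPRY4), beside 20.6% of all. These shares share the DMSO libraries and are given side by side only.

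Where a gene had 2 regions, the ratio of their counts within a library does not depend on how libraries are scaled to each other. At DUSP6 the start region had 1.31 and 1.32 times the counts of the upstream region in DMSO, 1.24 and 1.45 times at 2 h, and 0.904 and 0.910 times at 4 h. The 4 h ratios were the only ones below 1, and the log2 ratio differed from DMSO by -0.538. In an exact two-sided permutation test p was 0.333, the smallest that 2 libraries against 2 allow, and the measure was chosen after the data had been seen. At ETV4 the ratio of the upstream to the downstream region was 1.07 and 1.12 in DMSO, 0.795 and 0.760 at 2 h, and 0.957 and 0.667 at 4 h, so that both times lay below DMSO. At CCND1 the ratio was 1.30 and 1.57 in DMSO, 0.947 and 1.42 at 2 h, and 0.864 and 1.17 at 4 h, with both 4 h ratios below DMSO and a wide spread within each group. Those of SPRY2 ran from 1.34 to 1.87, with DMSO the lowest group. At SPRY4 the ratios ran from 0.838 to 1.25, with 0.897 and 0.838 in DMSO and 0.867 and 1.25 at 4 h.

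**Figure D3:**
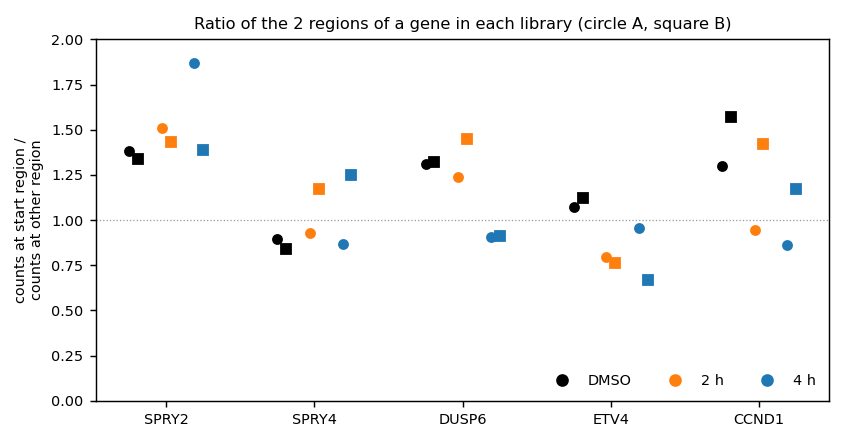
Counts at the start region divided by counts at the second region of the same gene (vertical axis) in each library, for the 5 genes with 2 regions; black is DMSO, orange 2 h and blue 4 h. At DUSP6 the 4 h ratios of 0.904 and 0.910 stood apart from 1.31 and 1.32 in DMSO.

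The regions of the table with the pattern over the 3 groups most like that of the DUSP6 start region, by root mean square difference of centred mean log2 CPM, were on chromosome 15 at 71407827 (0.00818), chromosome 7 at 143208366 (0.00908) and chromosome 5 at 72743281 (0.0187). They had 30.7 to 44.7 CPM in DMSO, far below DUSP6, and none was called at 4 h (adjusted p = 0.220, 0.356 and 0.189). With 3 group means from 6 libraries such likeness is a description only.

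Other genes of the pathway were taken from 2 lists, by regions within 1 kb of their starts. Of 15 further feedback and output genes 13 had a region (DUSP7 and FOSL1 had none), and of 16 genes of the cascade itself 16 had, with 17 regions. After 2 h, 4 of the 13 output genes rose and 1 fell, while 0 of the 17 cascade regions were called in edgeR, which has 2 of the 17 higher at an unadjusted p under 0.05, against 8.88% of all regions. limma-voom has 2, against 9.3%, and DESeq2 0, against 3.58%. The share of all regions called at 2 h is 2.22% higher and 0.396% lower. At 4 h 0 of the 30 regions were called by edgeR, DESeq2 or limma-voom, but 9 of the 30 have no adjusted p in DESeq2. At an unadjusted p under 0.05, 1 output region and 3 cascade regions were then higher in edgeR, against 8.2% of all regions. The counts were the same in limma-voom, against 8.27%, and 0 in DESeq2, against 3.12%. The 1 of 13 output regions is near the background. The median log2 fold change of the output list was 0.318 at 2 h and 0.0863 at 4 h, and that of the cascade 0.0551 and -0.0465. The output median at 2 h stayed between 0.257 and 0.383 under every alternative. At 4 h it was 0.206 without DMSO library A, 0.0168 without DMSO library B, 0.0199 without 4 h library A and 0.147 without 4 h library B. The cascade median was 0.19 and 0.0681 at the respective times without DMSO library A, and 0.0105 and -0.0727 without DMSO library B. At 2 h it was 0.104 without 2 h library B, and at 4 h -0.012 without 4 h library B. With the share of the 3 highest regions in the fit it was 0.14 at both times, so its sign at 4 h turned, and with total count scaling it was -0.00584 and -0.101.

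The 4 rises were at EGR1 and MYC, immediate early transcription factors, IER3, an early response gene, and EPHA2, an ephrin receptor. IER3 had 77.8 and 64.3 CPM in DMSO, 126 and 98.1 CPM at 2 h, and 92.6 and 77.8 CPM at 4 h (log2 fold change at 2 h 0.65, SE 0.16, edgeR adjusted p = 0.00995). EGR1 had 64.3 and 41.1 CPM in DMSO, 91.5 and 78.3 CPM at 2 h, and 49.8 and 60.7 CPM at 4 h (0.66, adjusted p = 0.0232). MYC had 52.4 and 47.2 CPM, then 77.5 and 75.3 CPM, then 61.1 and 51.1 CPM (0.61, adjusted p = 0.0308). In each of these genes both 2 h libraries were the highest of the 6, and the direct 4 h against 2 h test did not pass (adjusted p = 0.998).

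EPHA2 had 103 and 130 CPM in DMSO, 182 and 150 CPM at 2 h, and 134 and 111 CPM at 4 h (0.52, SE 0.15, adjusted p = 0.0436). EPHA4, a second ephrin receptor, went the other way. It had 49.7 and 60.9 CPM in DMSO, 29.3 and 31.2 CPM at 2 h, and 41.0 and 44.7 CPM at 4 h (-0.86 at 2 h, SE 0.21, adjusted p = 0.0120). Each of the 5 calls at 2 h ended without at least 1 library: EPHA2 without DMSO A or 2 h A, EPHA4 without DMSO B, 2 h A or 2 h B, EGR1 and IER3 without DMSO B or 2 h A, and MYC without any 1 of those 4. The count was 0 without 2 h library A, 1 without DMSO library B and 3 without 2 h library B. The count was 2 with total count scaling, 2 with cyclic loess and limma-trend, and 0 in DESeq2, where 12 of the 30 regions have no adjusted p. It was 7 with the share of the 3 highest regions in the fit, which added FOS (0.72, adjusted p = 0.000315) and DUSP5 (0.44, adjusted p = 0.0435). FOS was also called at 4 h in that fit (0.63, adjusted p = 0.0209). In the main edgeR fit FOS missed the threshold at 2 h (0.50, adjusted p = 0.0704). Both 2 h libraries of FOS stood above both DMSO libraries. FOS was called at 2 h with only the 2 groups compared (0.50, adjusted p = 0.0309). With the library letter as a replicate block it was called too (0.50, adjusted p = 0.00321). Leaving out DMSO library A or either 4 h library also gave the call of FOS. Leaving out DMSO library B or either 2 h library did not. DESeq2, limma-voom and the other scalings did not call it. FOS encodes a subunit of AP-1 and DUSP5 a nuclear phosphatase of ERK.

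**Figure D4:**
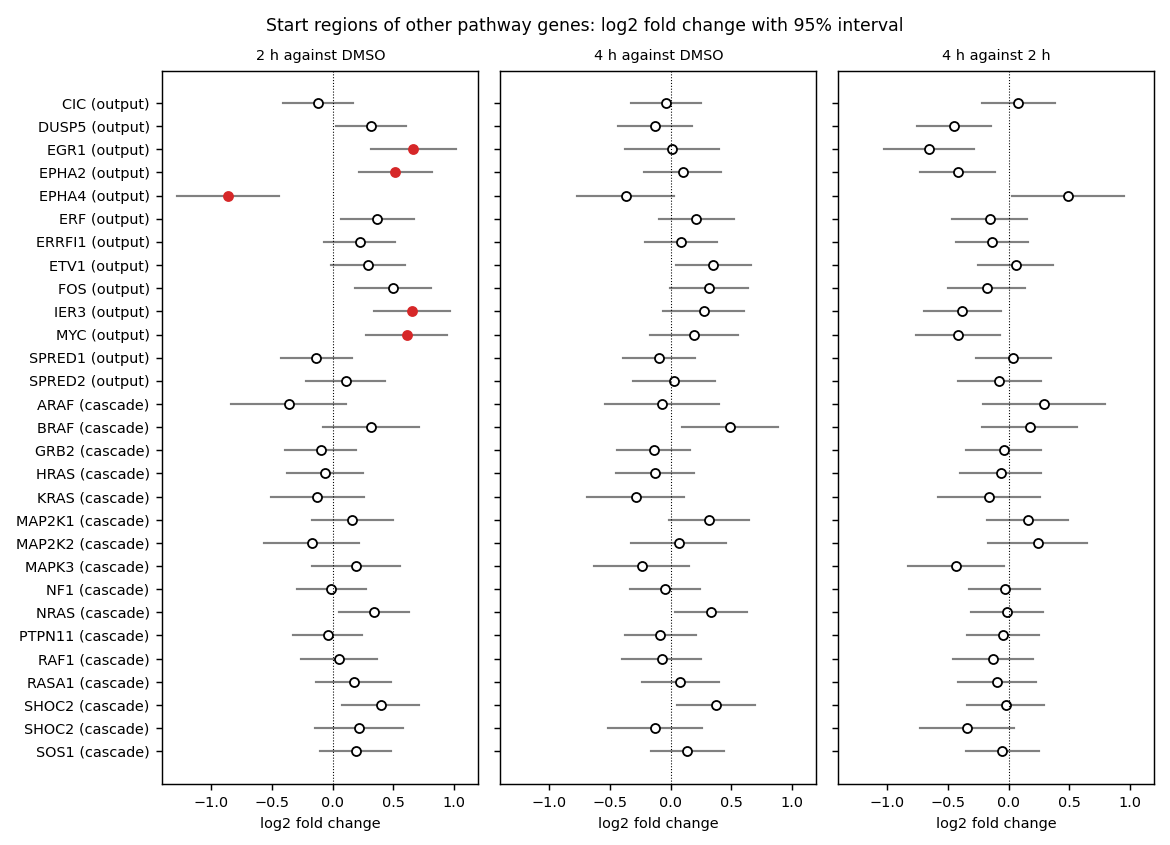
Log2 fold change (horizontal axes) with 95% intervals at start regions of other pathway genes, in the output list and the cascade list; filled points passed an adjusted p under 0.05 in edgeR. The 5 filled points, EGR1, EPHA2, IER3 and MYC to the right and EPHA4 to the left, are all at 2 h.

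Promoters of the members and of these ephrin receptors were the ones searched, and that of EPHA2 is shown because it holds the CIC octamer as well (capitals), beginning at position -34 from the start. It is the 250 bases before the RefSeq start in GRCh38.p14 at chr1:16156070-16156319, minus strand, read 5′ to 3′. The 2 promoters of EPHA4 held none of the 3 motifs.
EPHA2: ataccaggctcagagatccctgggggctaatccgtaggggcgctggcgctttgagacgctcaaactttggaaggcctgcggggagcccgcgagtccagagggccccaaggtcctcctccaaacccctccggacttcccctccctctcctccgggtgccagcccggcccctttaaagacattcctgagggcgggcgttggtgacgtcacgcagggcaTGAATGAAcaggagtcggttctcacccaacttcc

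Of the cascade, the regions with the 2 lowest p-values at each time are given. At 2 h these were 1 of the 2 regions of SHOC2, a scaffold that helps activate RAF, with a log2 fold change of 0.40 (adjusted p = 0.196), and NRAS, a RAS gene, with 0.34 (adjusted p = 0.244). At 4 h they were BRAF, a RAF kinase gene, with 0.49 (adjusted p = 0.234), and the same SHOC2 region, with 0.37 (adjusted p = 0.277). The second SHOC2 region had 0.22 and -0.13 at these times (adjusted p = 0.646 and 0.857).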

How the data were processed

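Ser5 Pol II ChIP-seq of Rh30 cells was used as raw counts for 12123 regions, deposited by the authors in a table of 6 columns, 2 per group. Trimmomatic 0.32, MACS2, Bowtie2, DESeq2 and DiffBind, and the builds hg19 and dm3, are listed in the submitters' processing notes without roles; how the regions were called is not stated there. Columns carry letters A and B that could not be tied to the replicate numbers of the labels.

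Counts were tested with edgeR 4.0.16 in R 4.3.3: TMM factors, filterByExpr (0 regions removed), 1 fit of all 6 libraries, the quasi-likelihood test, and Benjamini-Hochberg adjustment over all regions, called under 0.05. The standard error is the size of the log2 fold change divided by the square root of F, and intervals are 95%. The fit was also run on simulated counts with the same spread in every region and independent libraries, and no result here rests on that run. Libraries of a group differed by more than sampling noise (chi-square per degree of freedom 1.5 to 2.33). Intervals and tests rest on counts without molecular identifiers.

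The members and lists were chosen with earlier results of these data known. All regions over a member's span are described, and of the other lists the called genes are named, or else the 2 with the lowest p; FOS, DUSP5 and the second SHOC2 region were named after their values were seen. Start positions of the other pathway genes were written from general knowledge of hg19, with no annotation of that build used. The values of 1 cascade gene are not reported here or drawn, and it stays in the counts. Promoters and names of overlapping genes come from RefSeq, GRCh38.p14, matched by symbol. Permutation tests used scipy 1.17.1 in Python 3.11.15. Alternatives were other scalings, tests (DESeq2 1.42.0, limma 3.58.1), filters, fits, windows and leaving out each library.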

Additional observations from a re-analysis of the deposited data

How the results depend on the processing

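The 2 member calls at 4 h remained 2 with 3 other scalings, with limma-voom, and under every other filter, dispersion and window tried, and in DESeq2 there were 0, with no adjusted p for 2 of the 14 regions. With the covariate for the 3 highest regions the 2 were DUSP6 and the second region of SPRY2. Leaving out 1 library gave 1 to 2. At 2 h the count of 0 became 1, SPRY4, with only the 2 groups compared, with a threshold of 0.1, and without either 4 h library, a range of 0 to 1. At 4 h against 2 h it was 0 under every alternative. The 5 pathway calls at 2 h became 2 with total count scaling, 2 with cyclic loess and 0 in DESeq2, 7 with the covariate and 6 with the replicate block, and 0 to 6 with 1 library left out; the 0 at 4 h became 1 with the covariate. Same-letter libraries deviated together (correlations 0.158 to 0.278), but 2 letters do not show a pairing. With the letter as a replicate block 1 member region, SPRY4, was called at 2 h (0.514, adjusted p = 0.0062) and 2 at 4 h.

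Of 956 alternative values for member regions and for pathway regions called in the main fit, 923 kept their side of the threshold. Of the 956, 28 lost a call and 5 gained one. Pathway regions not called in the main fit, FOS and DUSP5 among them, are outside this set, so their gains are not counted. No called value changed sign, and 36 values that were not called did, from at most 0.28 in size. The median standard error of the members, 0.15 at 2 h and 0.159 at 4 h on the log2 scale, limits what 2 libraries a group can show. Total count scaling moved the median of all regions to -0.0705 at 2 h and -0.0619 at 4 h.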
